A study of Rattus norvegicus with 8 samples.

Results

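Rgs14, Pcp4, Amigo2, Map3k15, Bok and Cpne4, a set of 6 genes used as markers of pyramidal neurons of hippocampal fields CA2 and CA3, were followed in dorsal hippocampus. They were chosen by gene symbol, out of 19722 genes with a single symbol on the arrays, and each was read from the probe set with the highest mean log2 signal over the 8 arrays. The samples were micropunches of dorsal hippocampus, 1 mm3 on each side, from young adult Sprague-Dawley males that had never received the drug. The nicotine-sired group held 4 sons, 1 per litter, of sires that self-administered intravenous nicotine (0.03 mg/kg) for 60 days, and the saline-sired group held 4 sons of yoked saline sires. Each array came from a different father, and the tissue was whole punches and not sorted cells. In such tissue, fewer cells of a type and less RNA per cell cannot be told apart. The question was whether these marker transcripts differ with the sire's nicotine self-administration.

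CA3 pyramidal neurons receive the mossy fibres of dentate granule cells and project to CA1. CA2 is the narrow field between CA3 and CA1; its neurons resist the usual forms of synaptic potentiation at inputs from CA3 and take part in social memory. Rgs14 encodes a regulator of G protein signalling that limits plasticity in mouse CA2. Pcp4 encodes a small calmodulin-binding protein, Amigo2 a leucine-rich-repeat adhesion protein, and Map3k15 a MAP kinase kinase kinase of the ASK family. Bok encodes a member of the BCL2 family of cell death regulators, and Cpne4 a copine, a protein that binds phospholipids when calcium is present.

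In the annotation of the deposited table, which cites build Rnor_5.0, Rgs14 lies on the minus strand at chr17:11887270-11901352, Cpne4 on the plus strand at chr8:112491426-112972591 and Bok on the plus strand at chr9:100482657-100493562. Promoter windows, from 250 bases before to 50 after the gene start in RefSeq (GRCr8), were matched for 4 of the 6 genes. They are shown because Cpne4, Pcp4 and Amigo2 were low together on 1 array, whereas Rgs14 was not. The windows are chr8:114055902-114056201 on the plus strand for Cpne4, chr11:49269936-49270235 on the plus strand for Pcp4, chr7:130273686-130273985 on the minus strand for Amigo2 and chr17:9268184-9268483 on the minus strand for Rgs14, each written 5′ to 3′ with motif matches in capitals.
Cpne4: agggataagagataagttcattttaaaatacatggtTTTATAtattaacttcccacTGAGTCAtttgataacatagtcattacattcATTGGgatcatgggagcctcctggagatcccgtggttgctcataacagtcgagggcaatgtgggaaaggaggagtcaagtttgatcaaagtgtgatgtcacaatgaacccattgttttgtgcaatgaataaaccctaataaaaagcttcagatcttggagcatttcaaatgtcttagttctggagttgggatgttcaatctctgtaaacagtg
Pcp4: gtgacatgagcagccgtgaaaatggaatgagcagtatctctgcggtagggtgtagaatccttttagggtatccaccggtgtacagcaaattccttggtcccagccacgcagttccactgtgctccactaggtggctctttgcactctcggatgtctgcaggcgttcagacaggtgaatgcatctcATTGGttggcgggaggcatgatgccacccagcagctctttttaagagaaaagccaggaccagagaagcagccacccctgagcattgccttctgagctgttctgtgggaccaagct
Amigo2: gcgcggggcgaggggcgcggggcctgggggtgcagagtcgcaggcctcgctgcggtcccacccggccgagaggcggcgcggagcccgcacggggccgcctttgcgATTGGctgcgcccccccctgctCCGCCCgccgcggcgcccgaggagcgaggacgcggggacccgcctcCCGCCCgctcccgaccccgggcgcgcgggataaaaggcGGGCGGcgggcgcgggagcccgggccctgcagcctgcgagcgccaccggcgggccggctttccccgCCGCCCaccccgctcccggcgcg
Rgs14: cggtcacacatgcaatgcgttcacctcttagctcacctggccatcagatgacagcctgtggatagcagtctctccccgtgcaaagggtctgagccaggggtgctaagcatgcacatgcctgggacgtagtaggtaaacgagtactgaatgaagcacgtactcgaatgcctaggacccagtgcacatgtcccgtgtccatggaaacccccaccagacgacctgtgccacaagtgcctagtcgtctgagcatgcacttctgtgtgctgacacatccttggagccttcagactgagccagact
Both strands were searched for 6 motifs, the TATA box (TATAAA), the CCAAT box (CCAAT), the GC box (GGGCGG), the E-box (CACGTG), the cAMP response element (TGACGTCA) and the AP-1 site (TGACTCA). Cpne4, Pcp4 and Amigo2 each held 1 CCAAT box on the reverse strand, a motif found in 37.5% of all windows, and Rgs14 held none. No window was matched for Bok, which was not low on that array either. Whether the motifs relate to the readings was not tested. Cpne4 held 1 TATA box, 1 AP-1 site and 1 CCAAT box, in a window with a GC content of 38.3%. All were letter matches on the reverse strand, at -213, -193 and -162 relative to the gene start. Amigo2 held 1 CCAAT box and 4 GC boxes in a window with a GC content of 83.7%. Pcp4 held 1 CCAAT box (GC content 53.3%) and Rgs14 held none of the 6 motifs (GC content 55.3%). No match overlapped another. Of all 33469 promoter windows of that length, 37.5% held a CCAAT box, 33.1% a GC box, 14.2% a TATA box, 6.42% an E-box, 4.63% an AP-1 site and 1.83% a cAMP response element, and the median GC content was 51.7%.

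Array medians over gene-class probe sets ran from 6.25 to 6.29 log2 units in nicotine-sired and from 6.30 to 6.35 in saline-sired sons. Of the field markers that define hippocampus, 8 of 8 for CA1 and 5 of 8 for dentate granule cells were above the filter described below. Still, 2 arrays stood apart. Nicotine-sired 1 had the highest mean centred score of 8 CA1 pyramidal markers, 1.78 against 1.11 or less on every other array, and the lowest score of 5 dentate granule cell markers, -1.43 against -0.24 or more. Nicotine-sired 4 had the highest scores of choroid plexus genes (3.75, against 0.70 or less elsewhere) and of striatal genes (2.10, against -0.065 or less). The CA1 markers had higher means in nicotine-sired sons in 8 of 8 cases, with a median difference of 1.76, or 1.48 without nicotine-sired 1. Of the 8, 7 were highest on nicotine-sired 1 and 1 passed the adjusted threshold of limma described below (2.06% of all kept probe sets did): Dcn, the proteoglycan decorin, rose by 2.11 ± 0.41 (adjusted p = 0.0398), and 0 of the 8 passed without nicotine-sired 1. With all arrays, 8 of the 8 had an unadjusted p under 0.05 in limma, against 24.0% of kept probe sets. CA1 scores ran from -0.048 to 1.78 in nicotine-sired and from -1.57 to -0.052 in saline-sired sons, without overlap. On nicotine-sired 1, 4 of the 5 kept dentate markers were at their lowest. Dentate markers were lower in 4 of 5 cases (median -0.81, or -0.58 without nicotine-sired 1), with 3 at an unadjusted p under 0.05. Thalamic markers were higher in 5 of 6 (median 0.40, with 4 at an unadjusted p under 0.05) and astrocyte markers in 5 of 5 (median 0.14, with 2), where 24.0% of kept probe sets reached that p. With all 8 arrays, none of these 3 lists held a gene past the adjusted threshold. Without nicotine-sired 1 and 4 the medians were 1.78 for CA1, -0.61 for dentate, 0.38 for thalamic and 0.12 for astrocyte markers. In that fit 1 CA1 and 1 thalamic marker passed, beside 237 of all 15161 kept probe sets. The part of punch position in the results below was not tested, and several results that rest on these arrays are also given without them.

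Among the CA2 and CA3 markers, Rgs14 was higher on every nicotine-sired array than on any saline-sired array, although it just missed the threshold of the test. The mean of Cpne4 was lower in nicotine-sired sons, by less than the SD of that group but more than the SD of the saline-sired group. Pcp4, Amigo2 and Cpne4 shared a very low reading on nicotine-sired 1. Of the 6 genes, 5 lay above the filter on dim probe sets (a mean over 8 arrays above 6.30 log2 units) and were tested with limma. At a Benjamini-Hochberg adjusted p of 0.05, 0 of the 5 passed, while 2.06% of the 15161 kept probe sets did (1.18% higher and 0.884% lower in nicotine-sired sons). At an unadjusted p under 0.05, 1 of the 5 (Rgs14) passed, against 24.0% of kept probe sets. The median difference of the 5 was -0.03, beside 0.02 over all kept probe sets.

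**Figure D1:**
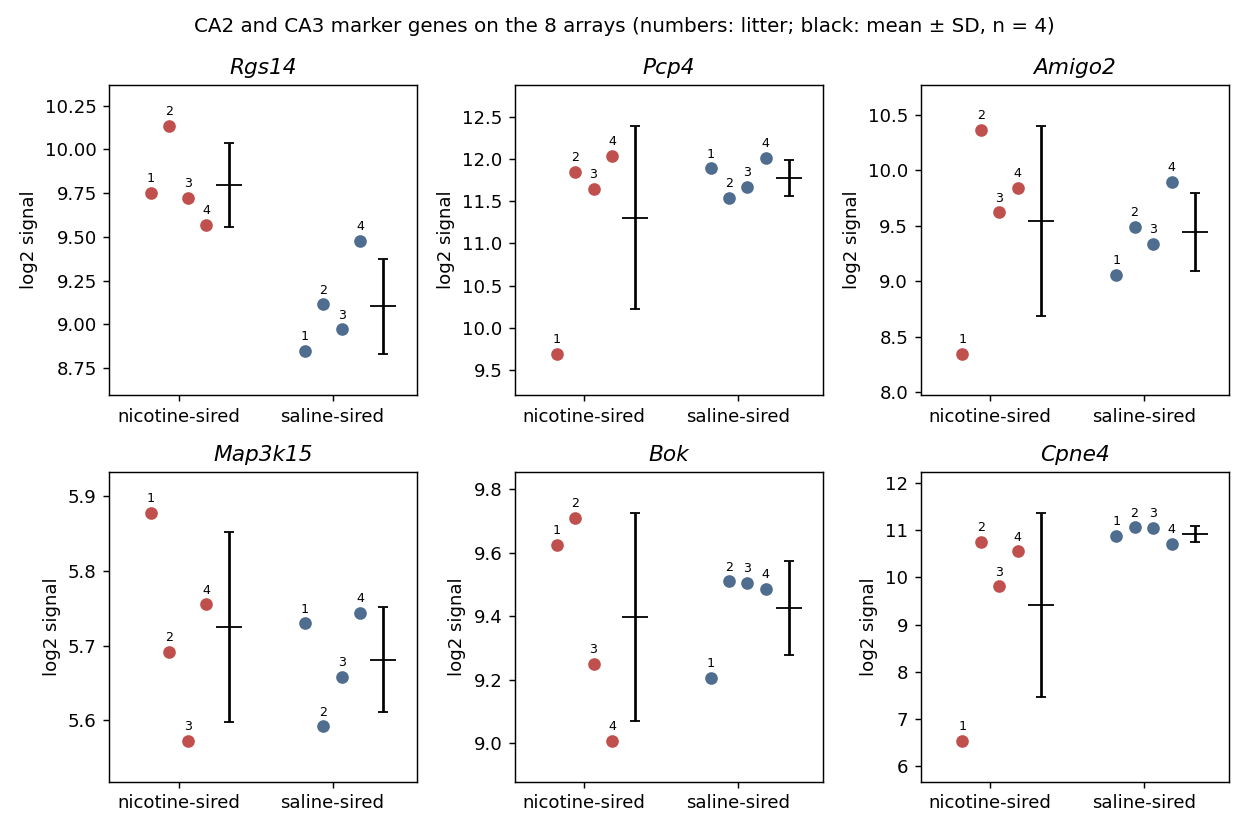
Log2 signal (vertical axis, its range differs between panels) of the 6 genes on each array; red points are nicotine-sired and blue points saline-sired sons, numbers are litters and black bars give the mean ± SD of 4 arrays. All 4 nicotine-sired points of Rgs14 lie above all 4 saline-sired points, and nicotine-sired 1 is the lowest of 8 for Pcp4, Amigo2 and Cpne4.

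Rgs14 read 9.75, 10.13, 9.72 and 9.57 log2 units on nicotine-sired 1 to 4, against 8.85, 9.11, 8.97 and 9.47 on saline-sired 1 to 4. The groups did not overlap, although the lowest nicotine-sired and the highest saline-sired array were only 0.09 apart. Such separation was found in 1 of the 5 kept genes and in 14.3% of all kept probe sets (8.19% with the nicotine-sired group higher). The mean was 9.79 ± 0.24 in nicotine-sired and 9.10 ± 0.27 in saline-sired sons (SD, n = 4 each), a difference of 0.69 ± 0.15 (limma standard error; 1.62-fold; 95% interval 0.35 to 1.03). The adjusted p of limma was 0.0537, just short of the threshold, and the exact permutation p was 0.0286, the smallest that 4 against 4 arrays allow. Without nicotine-sired 4 the adjusted p was 0.0325 and without saline-sired 4 it was 0.0486, while without any other single array it lay between 0.0565 and 0.142. The size was steadier than the call, between 0.58 and 0.82 with each array left out. With the CA1 marker score in the model, an alternative chosen once the data had been seen, the difference was 0.43 ± 0.24 (adjusted p = 0.605). The CA1 score was higher on every nicotine-sired than on any saline-sired array, though nicotine-sired 4 (-0.048) and saline-sired 4 (-0.052) nearly touched. That model thus separates score and group only in part, and the standard error grew from 0.15 to 0.24. No conclusion is drawn from that model.

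Cpne4 was the gene with the widest spread. Cpne4 read 6.54, 10.76, 9.81 and 10.55 on nicotine-sired 1 to 4, against 10.88, 11.06, 11.05 and 10.71 on saline-sired 1 to 4. Nicotine-sired 1 was far below the rest, nicotine-sired 3 and 4 were also under every saline-sired array, and nicotine-sired 2 lay just above saline-sired 4. The mean was 9.41 ± 1.96 in nicotine-sired and 10.93 ± 0.17 in saline-sired sons (SD, n = 4 each). The difference of -1.51 ± 0.78 did not pass in limma (adjusted p = 0.269, 95% interval -3.27 to 0.24; exact permutation p = 0.0571). It was smaller than the SD of the nicotine-sired group, which includes the far lower nicotine-sired 1, but larger than the SD of the saline-sired group. Without nicotine-sired 1 it was -0.55 ± 0.20 (adjusted p = 0.190), and without nicotine-sired 1 and 4 it was -0.64 ± 0.23 (adjusted p = 0.197). With the CA1 marker score in the model, which separates score and group only in part, it turned to 0.84 ± 0.96 (adjusted p = 0.824). A second, dim probe set of Cpne4 was also lowest on nicotine-sired 1, at 5.51, with 6.02 to 6.33 on the other nicotine-sired and 6.09 to 6.61 on the saline-sired arrays.

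Pcp4 read 9.69, 11.84, 11.65 and 12.03 on nicotine-sired 1 to 4, against 11.89, 11.53, 11.67 and 12.01 on saline-sired 1 to 4. Apart from nicotine-sired 1 the groups lay in the same range. The mean was 11.30 ± 1.08 in nicotine-sired and 11.78 ± 0.21 in saline-sired sons (SD, n = 4 each). The difference of -0.47 ± 0.44 (adjusted p = 0.539, 95% interval -1.46 to 0.52) turned to 0.06 ± 0.13 without nicotine-sired 1 (adjusted p = 0.817).

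Amigo2 read 8.34, 10.36, 9.62 and 9.84 on nicotine-sired 1 to 4, against 9.06, 9.49, 9.33 and 9.89 on saline-sired 1 to 4. Nicotine-sired 1 was the lowest and nicotine-sired 2 the highest of all 8. The mean was 9.54 ± 0.86 in nicotine-sired and 9.44 ± 0.35 in saline-sired sons (SD, n = 4 each). The difference was 0.10 ± 0.37 (adjusted p = 0.894, 95% interval -0.73 to 0.93). Without nicotine-sired 1 it was 0.50 ± 0.22 (adjusted p = 0.251), and its sign turned when nicotine-sired 2 (-0.17), nicotine-sired 4 (-0.00050) or saline-sired 1 (-0.029) was omitted. With saline-sired 4 omitted it was 0.25.

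Bok read 9.62, 9.71, 9.25 and 9.01 on nicotine-sired 1 to 4, against 9.20, 9.51, 9.51 and 9.48 on saline-sired 1 to 4. Nicotine-sired 1 was the second highest, so Bok did not share the low reading of Cpne4. The mean was 9.40 ± 0.33 in nicotine-sired and 9.43 ± 0.15 in saline-sired sons (SD, n = 4 each). The difference was -0.03 ± 0.15 (adjusted p = 0.928, 95% interval -0.37 to 0.31), and it turned to 0.02 without nicotine-sired 3, to 0.10 without nicotine-sired 4 and to 0.01 with each array centred on its median. Map3k15 lay under the filter on every array, with 5.57 to 5.88 in nicotine-sired and 5.59 to 5.74 in saline-sired sons. Its means of 5.72 ± 0.13 and 5.68 ± 0.07 in nicotine-sired and saline-sired sons differed by 0.04, less than either SD (n = 4 each). It was tested only in a fit with no filter on dim probe sets, where the difference was 0.04 ± 0.09 (adjusted p = 0.832 in limma).

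**Figure D2:**
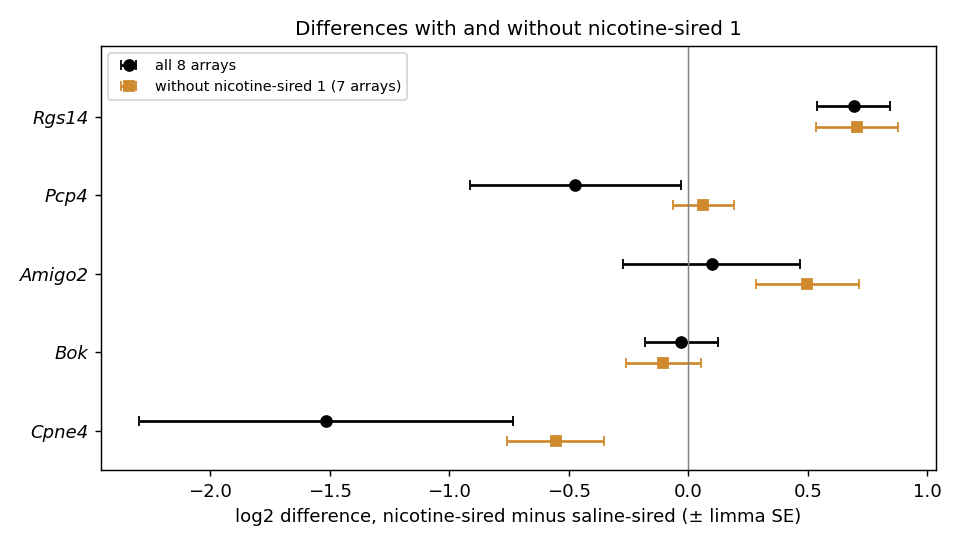
Log2 difference, nicotine-sired minus saline-sired (horizontal axis), with its limma standard error, for the 5 genes above the filter; black circles use all 8 arrays and orange squares leave out nicotine-sired 1. Rgs14 stays near 0.7 in both, Cpne4 goes from -1.51 to -0.55, Pcp4 and Amigo2 shift upward, and Bok goes from -0.03 to -0.10.

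The low reading of Cpne4 on nicotine-sired 1 was extreme for that array. It lay 3.27 log2 units under the lowest of the other 7 arrays, the widest such gap of all 15161 kept probe sets. Pcp4 lay 1.84 under the lowest of the others, the 14th widest gap, and Amigo2 lay 0.71 under it. Nicotine-sired 1 was more than 1 log2 unit below all the others in 56 kept probe sets, and no other array was so in more than 4. It was the lowest of 8 in 3 of the 5 kept CA2 and CA3 genes and in 15.3% of kept probe sets. These gaps were looked up after the values were seen.

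**Figure D3:**
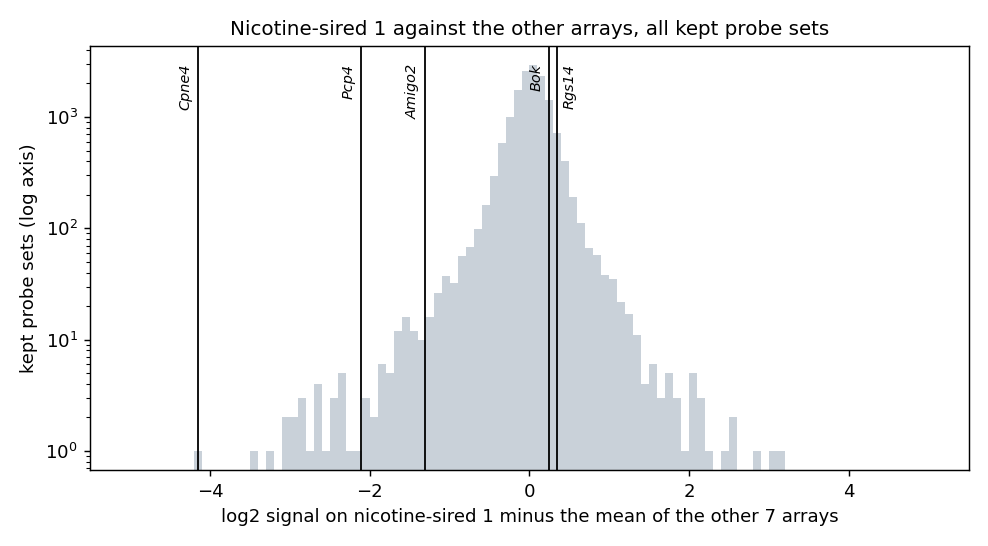
Histogram of the log2 signal on nicotine-sired 1 minus the mean of the other 7 arrays (horizontal axis) over the kept probe sets (vertical axis, log scale), with vertical lines at 5 of the marker genes. Cpne4 lies at -4.15, Pcp4 at -2.11 and Amigo2 at -1.31, whereas Bok (0.24) and Rgs14 (0.35) lie to the right of 0.

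Other markers of the same fields behaved unevenly. Of 10 further CA2 markers, 9 were measured and kept; 6 were higher and 3 lower in nicotine-sired sons (median 0.09), and 1 passed, beside 2.06% of all kept probe sets. That gene, Etv1, which encodes an ETS transcription factor, rose by 0.48 ± 0.08 (adjusted p = 0.0312 in limma). It read 10.05 to 10.25 in nicotine-sired and 9.54 to 9.88 in saline-sired sons, without overlap. Without nicotine-sired 1 its difference was 0.45 ± 0.09 (adjusted p = 0.0617). In that fit 7 of the 9 CA2 markers were higher and 2 lower (median 0.13), and 0 passed, beside 80 of all 15161 kept probe sets. Cacng5, which encodes an AMPA receptor regulatory subunit and ranked among the genes most like Amigo2, read 5.38, 9.58, 8.35 and 8.74 on nicotine-sired 1 to 4, against 7.74, 7.98, 7.86 and 8.38 on saline-sired 1 to 4. It was thus under the filter value on nicotine-sired 1 alone, and highest on nicotine-sired 2, like Amigo2. The difference of Cacng5 was 0.02 ± 0.74, and 0.90 ± 0.27 without nicotine-sired 1 (adjusted p = 0.990 and 0.136).

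Of 9 further CA3 markers, 8 were kept; 7 were lower and 1 higher in nicotine-sired sons (median -0.31). None of the 8 passed the adjusted threshold of limma (0 of 8, beside 2.06% of all kept probe sets), while 4 of 8 had an unadjusted p under 0.05 (24.0% of all kept probe sets). The median was -0.21 without nicotine-sired 1 (6 lower and 2 higher) and -0.30 without nicotine-sired 1 and 4. Nectin3, an adhesion protein of synaptic junctions, read 9.26, 9.77, 9.52 and 9.80 on nicotine-sired 1 to 4, against 9.88, 10.20, 10.29 and 9.99 on saline-sired 1 to 4. The groups did not overlap, and the difference was -0.50 ± 0.13 (adjusted p = 0.0760), or -0.39 ± 0.11 without nicotine-sired 1 (adjusted p = 0.126). Socs2, a suppressor of cytokine signalling, read 6.77, 7.96, 6.67 and 7.74 on nicotine-sired 1 to 4, against 8.04, 8.61, 8.81 and 7.87 on saline-sired 1 to 4. The difference of Socs2 was -1.05 ± 0.32 (adjusted p = 0.101), or -0.88 ± 0.33 without nicotine-sired 1 (adjusted p = 0.201). Grik4, a kainate receptor subunit enriched in CA3, was chosen for mention once its values had been seen. Its readings were 7.73, 9.27, 8.40 and 9.10 on nicotine-sired 1 to 4, against 9.48, 9.67, 9.76 and 9.27 on saline-sired 1 to 4. Its groups did not overlap either, though they almost touched, and its difference was -0.92 ± 0.30 (adjusted p = 0.111), or -0.62 ± 0.20 without nicotine-sired 1 (adjusted p = 0.160).

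**Figure D4:**
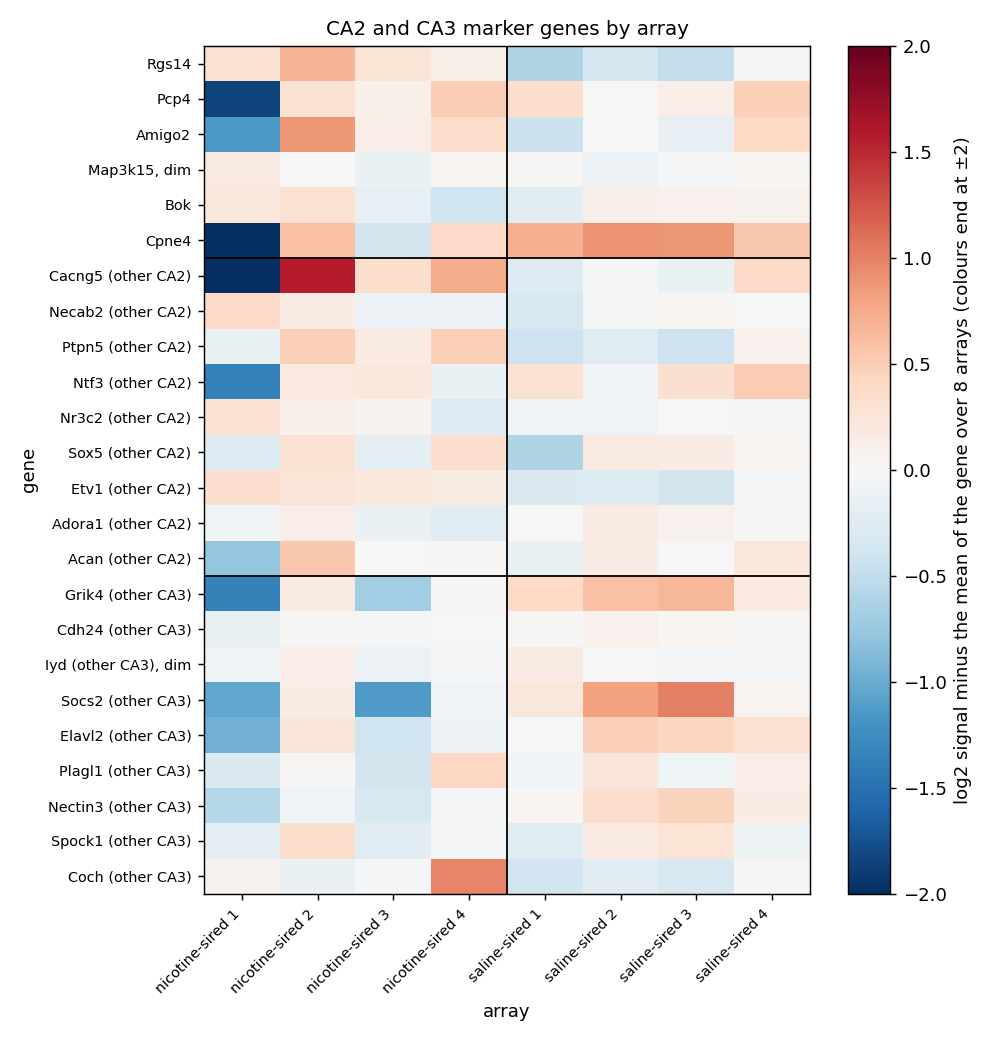
Log2 signal minus the mean of the gene over the 8 arrays (colour, which ends at ±2), with arrays as columns, nicotine-sired on the left, and rows for the 6 genes at the top, the other CA2 markers in the middle and the other CA3 markers at the bottom. On nicotine-sired 1, Cpne4, Pcp4, Cacng5, Ntf3 and Grik4 are deep blue while Rgs14, Bok and Etv1 are pale red.

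The mean centred score of the 5 kept genes was -1.22 on nicotine-sired 1 and 0.55, -0.0025 and 0.19 on nicotine-sired 2 to 4, against -0.037, 0.13, 0.095 and 0.30 on saline-sired 1 to 4. The score of the further CA2 markers was -0.47 on nicotine-sired 1 and ran from 0.06 to 0.42 on the other nicotine-sired arrays and from -0.20 to 0.13 on the saline-sired arrays. The low score rested mainly on Cacng5 (5.38) and Ntf3 (6.02). Of the 9 kept CA2 markers, 3 were lowest and 3 highest on nicotine-sired 1, and 15.3% of all kept probe sets were lowest there. The score of the further CA3 markers was -0.56 on nicotine-sired 1, -0.40 on nicotine-sired 3, 0.10 on nicotine-sired 2 and 0.15 on nicotine-sired 4, against -0.00011 to 0.31 on the saline-sired arrays. The 2 nicotine-sired arrays with low CA3 scores were the 2 with the highest CA1 scores, 1.78 and 1.11. Whether punch position accounts for this was not tested.

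**Figure D5:**
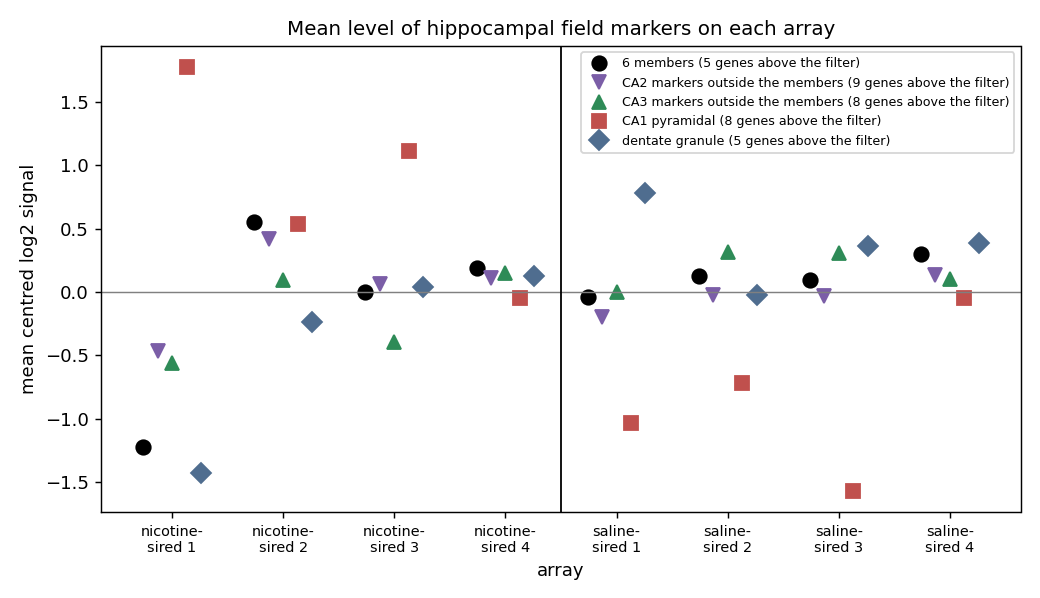
Mean centred log2 signal (vertical axis) of 5 marker groups on each array, nicotine-sired on the left and saline-sired on the right. On nicotine-sired 1 the CA1 markers stand at 1.78 while the 6-gene set (5 kept) stands at -1.22 and the dentate markers at -1.43.

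Relatives of the 6 genes were read from lists by family. Each list also holds the marker gene itself, so the counts below include it where it was kept. Among copines, 8 of 9 were kept, 3 higher and 5 lower (median -0.06, or -0.17 without nicotine-sired 1 and 4), and 1 passed, beside 2.06% of all kept probe sets: Cpne9 fell by 0.58 ± 0.11 (adjusted p = 0.0345 in limma), reading 6.29 to 6.67 in nicotine-sired and 6.96 to 7.17 in saline-sired sons. Without nicotine-sired 1 its difference was -0.54 ± 0.11 (adjusted p = 0.0746), and without nicotine-sired 1 and 4 it was -0.62 ± 0.12 (adjusted p = 0.0479). Among calmodulins and small calmodulin-binding proteins, 6 of 7 were kept, 3 higher and 3 lower (median 0.01), and 1 passed, beside 2.06% of all kept probe sets: Gap43, the growth cone protein, fell by 0.44 ± 0.09 (adjusted p = 0.0430), reading 9.67 to 9.90 in nicotine-sired and 10.11 to 10.46 in saline-sired sons. Without nicotine-sired 1 its difference was -0.39 ± 0.09 (adjusted p = 0.0877).

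In the 9-gene list of Rgs14, its close relatives, Gi/o subunits, Gpsm1 and Gpsm2, all 9 were kept, 6 higher and 3 lower (median 0.06). Of these, 0 passed in limma, with 3 at an unadjusted p under 0.05 (24.0% of all kept probe sets). Rgs10, a relative of Rgs14, lay the other way. It read 8.55, 9.29, 9.51 and 9.46 on nicotine-sired 1 to 4, against 10.16, 9.90, 9.81 and 9.97 on saline-sired 1 to 4, without overlap. The difference of Rgs10 was -0.76 ± 0.19 (adjusted p = 0.0709), or -0.54 ± 0.10 without nicotine-sired 1 (adjusted p = 0.0553). In the BCL2 family 12 of 15 were kept, 6 higher and 6 lower (median 0.01), with 0 passing and 4 at an unadjusted p under 0.05 (24.0% of all kept probe sets). Bak1, an effector of mitochondrial cell death, differed by 0.32 ± 0.08 (adjusted p = 0.0715), and Bcl2, an inhibitor, by 0.25 ± 0.09 (adjusted p = 0.135). In the list of ASK kinases and the MAP kinases below them 9 of 11 were kept, 2 higher and 7 lower (median -0.10), with 0 passing and 3 at an unadjusted p under 0.05 (24.0% of all kept probe sets). The kinase Map3k5 differed by -0.47 ± 0.15 (adjusted p = 0.105) and Mapk8 by -0.33 ± 0.07 (adjusted p = 0.0542). Both were lowest on nicotine-sired 1 and are given here for all 8 arrays only. The other AMIGO proteins differed by -0.16 ± 0.09 (Amigo1, adjusted p = 0.319) and -0.17 ± 0.13 (Amigo3, adjusted p = 0.460).

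The 6 genes did not share 1 profile. Pcp4 and Cpne4 had a Pearson's r of 0.94 over 8 arrays and -0.04 over the 7 without nicotine-sired 1, whereas Rgs14 and Amigo2 had 0.36 over 8 and 0.92 over those 7. These pairs were picked after the values were seen.

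The kept genes with the profile most like each marker over the 8 arrays were ranked by Pearson's r, given as a description of these 8 arrays. For Cpne4 they were Ncald, Il16 and Cplx2 (r of 0.99 each); Ncald read 9.57 on nicotine-sired 1 and 10.86 to 11.26 on the others, and Il16 read 6.63 and 8.60 to 9.59. For Pcp4 they were Tmem108 (0.99), Syt10 (0.98) and Clec1a (0.98), all of them lowest on nicotine-sired 1. For Amigo2 they were Hmbox1 (0.99), Thbs1 (0.98) and Cacng5 (0.96), also lowest there. The ranking was not repeated without that array. For Rgs14 they were Adhfe1 (0.98), Prokr2 (0.96) and Macf1l1 (0.96), and for Bok Gdap1l1 (0.98), Syt3 (0.97) and Arpc4 (0.97). Map3k15, at its dim level, was most like Mul1 (0.96), Smarcb1 (0.96) and Agpat4 (0.95).

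In the authors' deposited table an adjusted p under 0.05 was given for 2 of the 5 kept genes, where 8.63% of the kept probe sets did. These were Rgs14, with a ratio of 1.62 and an adjusted p of 0.0141, and Cpne4, with a ratio of 0.350 and an adjusted p of 0.0367. The authors' deposited table gave Pcp4 an adjusted p of 0.288 and the other 3 genes 0.846 to 0.928. The model behind those p-values was not stated, and the call for Cpne4 in the authors' deposited table includes nicotine-sired 1.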

How the data were processed

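RNA from dorsal hippocampal punches was hybridised to 1 Affymetrix array per son, per the labels. The authors deposited log2 signals for 36685 probe sets. The submitters' processing notes name MAS5, while normalization and array model are not given. The authors deposited a p-value, its step-up adjustment, a linear ratio of nicotine-sired to saline-sired sons and a signed fold score with each probe set, per the file headers, without naming the model. The log2 values of both deposited tables were identical.

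Of 30323 gene-class probe sets, 15161 had a mean above the median probe set (6.30) and were kept. Groups were compared with limma 3.58.1 in R 4.3.3 (lmFit, eBayes with a trend, two-sided), adjusted over all kept probe sets, after a test on simulated data. Errors after differences are standard errors of that fit. Single genes were also compared by exact permutation over 70 assignments. Gene symbols follow RefSeq, matched on gene ID (19430 probe sets). The number of arrays limits the precision. Same-numbered litters have different fathers and did not deviate together (correlations from -0.17 to 0.18), so the litter number was not used as a block.

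Members and lists were chosen with earlier results of these data known. In each field or family list the genes that passed are named, or the 2 with the smallest p; of the lists for other cells and regions only genes that passed are named. For each member the 3 most correlated genes are named, Cacng5 among them. Grik4 and Ntf3 were chosen after their values were seen. Alternatives covered filters, normalization, a pseudocount of 32, a block, array weights, eBayes settings, other probe sets and omission of single arrays. Fits without nicotine-sired 1 and 4 and with the CA1 marker score were added after seeing the data.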

Additional observations from a re-analysis of the deposited data

Results flagged for a closer look

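Of 44 groups of 4 arrays examined, over the 6 genes and 16 list scores, 5 held 1 array well apart from its group; about 1 in 20 groups (2.2) would by chance, and the groups share genes and arrays. Pcp4 read 9.69 on nicotine-sired 1 and 11.65 to 12.03 on the others of its group. Bok read 9.20 on saline-sired 1 and 9.48 to 9.51 on the others of its group. The copine score, which holds Cpne4, was -0.050 on saline-sired 1 and 0.11 to 0.12 on the others of its group. On nicotine-sired 4 the striatal score was 2.10 (-0.56 to -0.23 on the others of its group) and the choroid plexus score was 3.75 (-0.92 to -0.82). Cpne4 on nicotine-sired 1 did not meet this criterion, since nicotine-sired 3 was also low.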

How the results depend on the processing

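The difference of Rgs14 kept its direction in every alternative run, from 0.43 to 0.83, with adjusted p-values from 0.0218 to 0.605. It passed with each array centred on its median (0.73, adjusted p = 0.0489) and with array weights (0.71, adjusted p = 0.0218), and in both 1 of the 5 genes was called. The exact permutation p of 0.0286, not adjusted, is the value that any gene without overlap gets. Such separation was found in 14.3% of kept probe sets. With each array left out it ran from 0.58 to 0.82, and 0 to 1 genes were called. Over the same omissions Cpne4 ran from -1.96 to -0.55, Pcp4 from -0.71 to 0.064, Amigo2 from -0.17 to 0.50 and Bok from -0.13 to 0.10. With the CA1 marker score as a covariate Pcp4 turned to 0.64 and Cpne4 to 0.84, Amigo2 moved to 0.71 and Bok to -0.29. That score went largely with group, although the groups nearly touched, so the fit separates score and group only in part. The cause was not tested. Bok turned to 0.011 with median centring and to 0.054 without nicotine-sired 1 and 4. The 313 calls over all kept probe sets (179 higher, 134 lower) became 290 with median centring (199 and 91), 155 with no filter, 181 with a stricter filter, 1201 with array weights, 0 with the CA1 score (limma; 1444 at an unadjusted p under 0.05) and 0 to 737 when single arrays were omitted. The count was 0 when saline-sired 1 or saline-sired 3 was omitted (2724 and 2932 at an unadjusted p under 0.05), and 80 when nicotine-sired 1 was. With the litter number as a replicate block 0 probe sets and 0 of the 5 genes passed in limma (3326 at an unadjusted p under 0.05), and Rgs14 differed by 0.69 ± 0.15 (adjusted p = 0.108).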
